A study of Mus musculus with 24 samples.

Results

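Hox cluster genes encode homeodomain transcription factors and lie in 4 clusters, Hoxa on chromosome 6, Hoxb on chromosome 11, Hoxc on chromosome 15 and Hoxd on chromosome 2. Members were chosen by symbol, as every protein-coding gene of the mouse mm9 annotation named Hoxa, Hoxb, Hoxc or Hoxd followed by a number. The rule took 39 of the 22253 protein-coding genes on the autosomes and the X chromosome, with 11 genes in Hoxa, 10 in Hoxb, 9 in Hoxc and 9 in Hoxd. Hoxa3 is listed under 2 overlapping gene records, which were joined. The symbol alone decided membership, although the group was taken up with earlier results of these data known.

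H3K27ac, the acetylation of lysine 27 on histone H3, is found at active promoters and enhancers, and was measured by ChIP-seq in livers of 8-week-old mice. The groups were B6 male, B6 female, CAST male and CAST female, where B6 is the inbred strain C57BL/6J and CAST is the wild-derived inbred strain CAST/EiJ. Each group had 5 livers and 1 input control, and no treatment or engineered allele is named in the labels. Groups follow the sample titles, because the strain field of the labels contradicts them, with B6 given for all males and CAST for all females. The 5 livers of a group were pooled into 1 merged peak list, so there is no spread between livers, no SD and no test between groups. All values below describe these 4 lists.

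Hox genes give cells their position along the head-to-tail axis of the embryo. Within a cluster the genes are numbered by paralog group, and low numbers act early and toward the head whereas high numbers act late and toward the tail and the ends of the limbs. Polycomb proteins keep unused Hox genes silent by methylating the same lysine that carries the acetyl group at active genes, so that both marks cannot sit on the same histone tail.

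Called peaks lay in restricted segments of the clusters. The sequences printed here are mm9 stretches of 150 bases from the best-ranked region with room for such a stretch outside annotated UTRs in Hoxa, Hoxb and Hoxc, from the Hoxa7 region that CAST female lacked, and from the stretch just before the Hoxa13 and Hoxd13 starts, the uncalled starts of Hoxa and Hoxd with the highest CpG observed-to-expected ratio. Each reads from left to right along the strand of its gene, and capitals mark CG pairs, the sites of DNA methylation.
Hoxa5 intron, called in 4 lists, chr6:52153570-52153719, minus strand: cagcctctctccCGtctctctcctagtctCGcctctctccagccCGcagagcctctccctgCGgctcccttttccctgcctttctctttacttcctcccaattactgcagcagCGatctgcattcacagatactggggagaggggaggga
Hoxb5 coding exon and its border, called in 4 lists, chr11:96165416-96165565, plus strand: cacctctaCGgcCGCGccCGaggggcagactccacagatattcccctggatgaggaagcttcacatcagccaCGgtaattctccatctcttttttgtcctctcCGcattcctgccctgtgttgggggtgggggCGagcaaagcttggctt
Hoxc6 intron, called in 4 lists, chr15:102829839-102829988, plus strand: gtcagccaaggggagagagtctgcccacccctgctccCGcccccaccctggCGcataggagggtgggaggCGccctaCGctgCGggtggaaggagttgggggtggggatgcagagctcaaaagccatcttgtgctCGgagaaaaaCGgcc
Hoxa7 partly coding exon, called in 3 lists, chr6:52171486-52171635, minus strand: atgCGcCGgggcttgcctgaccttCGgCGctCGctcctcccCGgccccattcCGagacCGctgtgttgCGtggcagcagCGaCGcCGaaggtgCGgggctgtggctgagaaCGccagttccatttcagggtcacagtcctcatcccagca
Hoxa13 upstream, called in no list, chr6:52210875-52211024, minus strand: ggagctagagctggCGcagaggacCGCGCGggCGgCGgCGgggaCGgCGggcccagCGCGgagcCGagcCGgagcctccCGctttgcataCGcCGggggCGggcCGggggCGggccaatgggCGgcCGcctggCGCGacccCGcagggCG
Hoxd13 upstream, called in no list, chr2:74506217-74506366, plus strand: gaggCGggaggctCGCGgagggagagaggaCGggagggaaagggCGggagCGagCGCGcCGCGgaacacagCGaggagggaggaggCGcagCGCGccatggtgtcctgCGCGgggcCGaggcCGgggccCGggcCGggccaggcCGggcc
The called stretches held 5, 7, 7 and 14 CG pairs in the order printed. The median over the central 150 bases of all 119348 merged regions was 2 pairs, and 15.2%, 9.69%, 9.69% and 4.22% of those regions held at least as many. The uncalled stretch before Hoxa13 held 25 pairs and that before Hoxd13 held 21. The median before the starts of all 22253 genes was 6, and 2.47% and 6.27% of genes had as many as Hoxa13 and Hoxd13. The Hoxa13 and Hoxd13 stretches were picked by CpG ratio, so their counts follow from the choice and are shown as sequence only.

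A gene was counted as called in a list when a peak overlapped its body or the 2.5 kb on either side. Of the 39 Hox genes, 16 were called in B6 male, 16 in B6 female, 17 in CAST male and 14 in CAST female. Over all protein-coding genes the same windows held a peak for 67.0% of genes in B6 male, 66.9% in B6 female, 68.7% in CAST male and 67.9% in CAST female, so the Hox genes as a whole were called less often than the background in every list. This did not hold for each cluster by window, as Hoxb was near the background in every list, Hoxa was near it in 3 lists and lower in CAST female, and Hoxc and Hoxd were far below it. The 95% Wilson intervals of the background, which cover counting error only, ran from 66.3% at the lowest to 69.3% at the highest over the lists. Median gene length was 4058 bp for the Hox genes and 15488 bp for all genes, and longer windows have more room for a peak. The whole liver was used, so fewer cells carrying the mark and less mark per cell cannot be told apart.

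Counting peaks at transcript starts makes the window around each start the same for all genes. Genes with more annotated starts still have more chances of a call. Here too the Hox genes were below the background. A peak within 1 kb of an annotated start was found for 10 Hox genes (25.6%) in B6 male, 11 (28.2%) in B6 female, 11 (28.2%) in CAST male and 9 (23.1%) in CAST female. The share over all protein-coding genes was 58.2%, 58.3%, 60.2% and 59.5% in the same order of lists, with 95% Wilson intervals from 57.5% to 60.9%. By number of lists, 14 of the 39 genes had a window peak in all 4, 2 in 3, 1 in a single list and 22 in none. No list had a peak in the window of 56.4% of the Hox genes and 28.4% of all genes.

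Over all genes, those with a CpG-rich start had a start peak more often than genes in general. Each gene was classed by the 1 kb around its 5′-most start. That start was called CpG-rich at a CpG observed-to-expected ratio of at least 0.6 and at least 50% GC. The Hox genes had 19 such starts of 39 (48.7%), against 44.2% of all genes. Peaks were counted within 1 kb of any annotated start of a gene, not only the 5′-most. They were found for 5 of the 19 in B6 male, 5 in B6 female, 5 in CAST male and 4 in CAST female. In B6 female the 5 included Hoxa3, whose start peak lay at a start other than the 5′-most. Over all 9842 genes with a CpG-rich start, 87.0% were called in B6 male, 87.0% in B6 female, 90.1% in CAST male and 89.6% in CAST female, with 95% Wilson intervals from 86.3% to 90.6%. The Hox genes were therefore below the background in this class too. Hox genes with a CpG-rich 5′-most start had a start peak about as often as Hox genes in general.

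**Figure D1:**
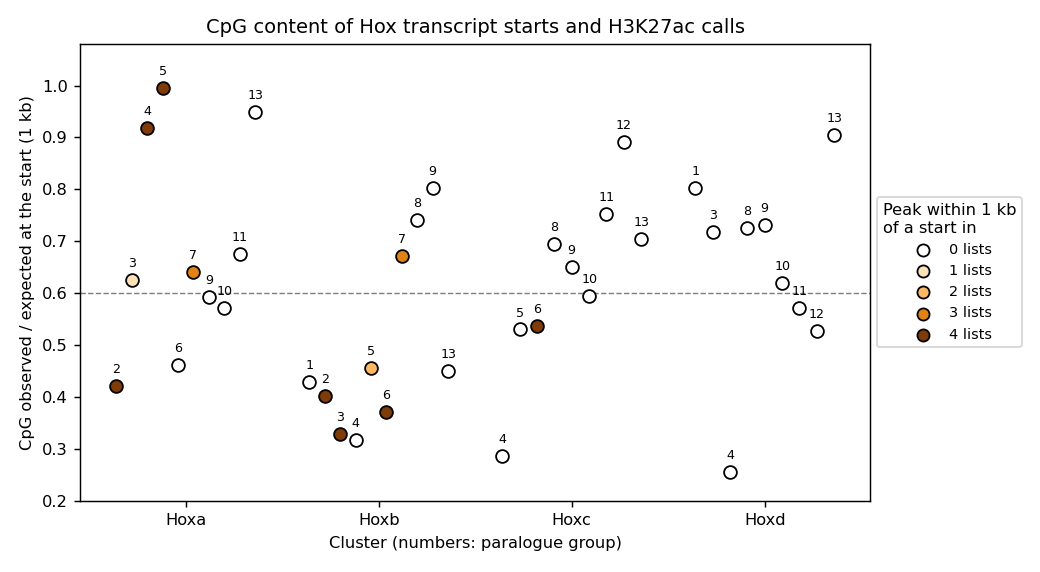
CpG observed-to-expected ratio of the 1 kb around the 5′-most start of each Hox gene (vertical axis) by cluster (horizontal axis). Numbers give the paralog group and the dashed line marks 0.6. The fill gives the number of lists with a peak within 1 kb of any annotated start. Starts above the line were open circles, called in no list, in all of Hoxc and Hoxd, whereas Hoxa4 and Hoxa5 were called in 4 lists.

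Called Hox genes also had peaks of lower rank than called genes in general, as did the starts of the hepatocyte markers given below. Each peak was ranked in its own list by the authors' score, and a percentile of 100 is the top. The median highest percentile among called Hox genes was 59.6 in B6 male, 55.7 in B6 female, 57.5 in CAST male and 54.1 in CAST female, whereas it was 91.5, 91.7, 92.2 and 91.6 among all called genes. The lists held 21, 26, 27 and 21 peaks in Hox windows, with a median fold enrichment of 2.59, 2.21, 2.45 and 2.49. Over all peaks of each list the median was 2.53, 2.5, 2.57 and 2.57. By fold enrichment the Hox median was thus above that of all peaks in B6 male, slightly below it in both CAST lists and further below in B6 female. Of the Hox peaks, 6, 6, 8 and 6 were in the upper 50% of their list and 0 in any list reached the upper 10%. The highest fold enrichments were 4.65, 4.82, 4.11 and 3.33, lowest in CAST female.

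**Figure D2:**
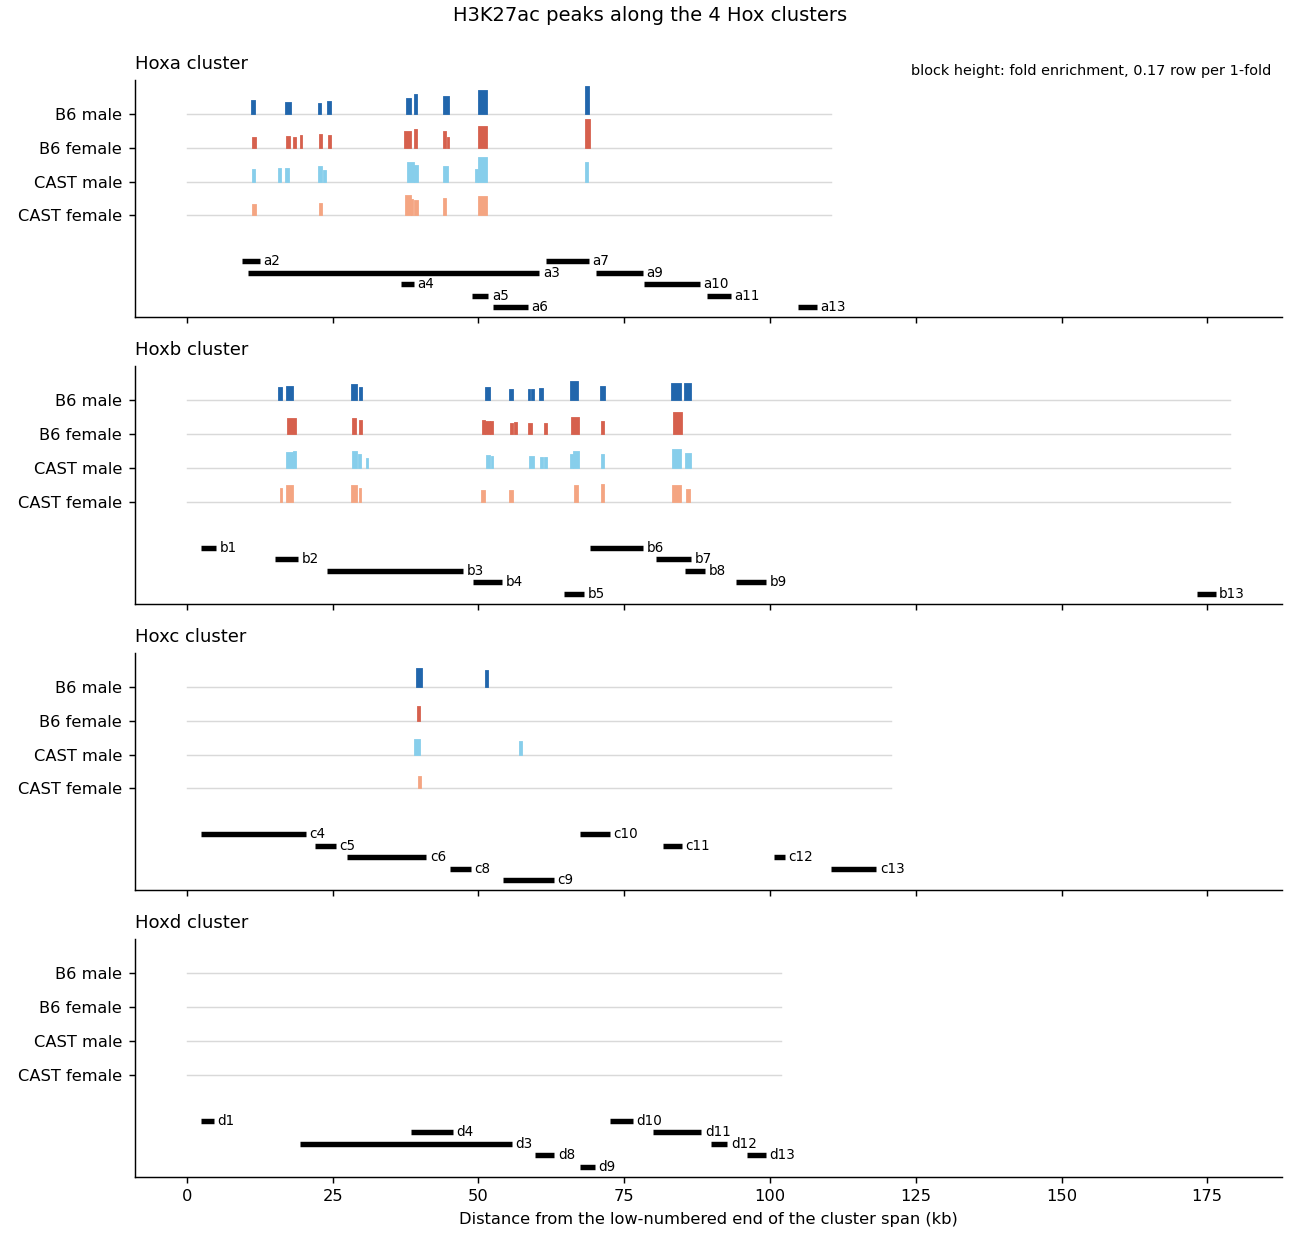
H3K27ac peaks of the 4 merged lists along the 4 Hox clusters, with distance in kb from the low-numbered end of each span on the horizontal axis and the lists as rows (block height, fold enrichment), and genes as black bars below. Blocks lie toward the low-numbered side of Hoxa, within 70.7 kb of Hoxb, at a few places in Hoxc, and at no place in the 102 kb of Hoxd.

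Hoxa was marked over its low-numbered side. The peaks of all lists lay within a segment of 64.0 kb that includes Hoxa2 to Hoxa7, and no list called the remaining 41.4 kb toward the Hoxa13 end. Peaks covered 10.8% of this segment in B6 male, 12.9% in B6 female, 11.6% in CAST male and 8.51% in CAST female. The longest stretch inside it without a call in any list was 16.9 kb. Hoxa had 8, 8, 8 and 6 of 11 genes called by window, which is 72.7% in the first 3 lists and 54.5% in CAST female, above the background of all genes in those 3 and below it in CAST female. By start it had 5, 6, 5 and 4, or 45.5%, 54.5%, 45.5% and 36.4%, below the background of 58.2% to 60.2% in every list.

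Hoxa5, which is needed for lung development, carried the region with the highest mean percentile of the cluster (64.1), at chr6:52152895-52154394 over its coding exons, UTR and intron. Its fold enrichment was 3.95 in B6 male, 3.59 in B6 female, 4.11 in CAST male and 3.15 in CAST female, at percentiles 67.3, 65.0, 70.7 and 53.4. All 4 lists called it, and CAST female was the lowest. Hoxa6 had no start peak in any list, and its window values were the same as those of Hoxa5 because it was reached only by this region.

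Hoxa3, which takes part in forming the thymus and parathyroid, is annotated over 49981 bp and its window contains the regions of Hoxa4 and Hoxa5. Its highest percentile was 67.3 in B6 male, 65.0 in B6 female, 70.7 in CAST male and 59.4 in CAST female, and these values belong to the Hoxa5 region except in CAST female, where they belong to Hoxa4. A peak within 1 kb of a Hoxa3 start was present in B6 female alone, at a fold enrichment of 1.98 (chr6:52122403-52122660). Hoxa4, a gene of the cervical region, had a region over its start, chr6:52140233-52141750, with fold enrichments of 2.59, 2.72, 3.23 and 3.33. Here the CAST lists were the higher. A neighboring region at chr6:52142006-52142504 had fold enrichments of 3.20, 3.07, 2.75 and 2.49 and showed the reverse order.

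Hoxa7 was called in 3 of 4 lists, in a region over its start at chr6:52171320-52172003. The fold enrichment was 4.65 in B6 male, 4.82 in B6 female and 3.25 in CAST male, at percentiles 74.9, 77.2 and 53.9, and CAST female had no peak there. Both B6 values were the highest of any Hox region in their lists. Hoxa9, a regulator of blood stem cells, was called in the same 3 lists only because its window reaches this region, and it had no start peak in any list. Hoxa10, Hoxa11 and Hoxa13, which pattern the uterus, limb and genital tract, had none in any list.

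Hoxa2, which patterns the hindbrain and the head arches, was called in all 4 lists. Its region at chr6:52114104-52114689 had fold enrichments of 2.25, 1.73, 2.02 and 1.84, at percentiles 45.6, 9.08, 33.0 and 16.9. These fold enrichments were lower than those of Hoxa4 and Hoxa5 in every list, and the call held in 2 lists at a −log10 q of at least 5.

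Hoxb was marked on its low-numbered side, short of Hoxb1. The peaks lay within chr11:96145578-96216249, 70.7 kb that overlap Hoxb2 to Hoxb8, and 92.4 kb toward Hoxb13 and 15.8 kb toward Hoxb1 were without a call in any list. Peaks covered 13.1% of the segment in B6 male, 11.2% in B6 female, 11.5% in CAST male and 8.78% in CAST female. The same 7 of 10 genes (70.0%) were called by window in every list, close to the background of 66.9% to 68.7%. A start peak was present for 4, 4, 5 and 4 of the 10 genes, a smaller share than the 58.2% to 60.2% of all genes. Hoxb1, Hoxb9 and Hoxb13 had no peak.

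Hoxb5, which acts in placing the forelimb, carried the region with the highest mean percentile of the cluster (57.6), at chr11:96164852-96166131. Its fold enrichment was 3.19 in B6 male, 2.81 in B6 female, 2.76 in CAST male and 2.75 in CAST female, at percentiles 61.6, 54.1, 57.5 and 57.4. B6 male was highest and the other lists differed little. Hoxb6 shared that region and also had its own at chr11:96160413-96160988, with fold enrichments of 2.30, 2.09, 2.34 and 2.86. In this case CAST female was the highest list. Hoxb3 had a region at chr11:96202866-96203778 with 2.69, 2.55, 2.74 and 2.77 and percentiles of 53.3, 49.6, 55.1 and 55.0, nearly level over the lists.

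The remaining Hoxb genes had lower mean percentiles. Hoxb2, at chr11:96213307-96214938, had fold enrichments of 2.35, 2.67, 2.72 and 2.81. Hoxb7 and Hoxb8 shared chr11:96147213-96148817, at 2.76, 3.60, 3.21 and 2.85 and highest in B6 female. By fold enrichment this region was above that of Hoxb5 in 3 lists, and its mean percentile was 52.5. A further region in both windows, chr11:96145578-96146612 at the Hoxb7 start, was not called in B6 female. Its fold enrichment was 2.73 in B6 male, 2.45 in CAST male and 2.14 in CAST female. Hoxb4, known for its effect on blood stem cells, had peaks in all lists with highest fold enrichments of 2.07, 2.25, 2.02 and 1.94 but no peak within 1 kb of its start. Between Hoxb5 and Hoxb4, outside every window, there were 3 further peaks in B6 male, 2 in B6 female, 3 in CAST male and 0 in CAST female.

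Hoxc was nearly bare, with 1, 1, 2 and 1 of 9 genes called by window (11.1%, 11.1%, 22.2% and 11.1%). Hoxc6, at chr15:102829526-102830721 in an intron 239 bp from a start, had fold enrichments of 3.0 in B6 male, 2.28 in B6 female, 2.45 in CAST male and 1.96 in CAST female, at percentiles 49.2, 21.8, 27.4 and 2.76. The peak was strongest in B6 male and close to the bottom of the CAST female list. Hoxc9, a gene of the thoracic spinal cord, was called in CAST male alone, over a coding exon at chr15:102812372-102812664, at a fold enrichment of 2.13 and percentile 10.8. With −log10 q of at least 5 the Hoxc6 call held in 2 lists, and with equal list lengths in 3. The Hoxc9 call held in 0 lists under either setting. Hoxc4, Hoxc5, Hoxc8, Hoxc10, Hoxc11, Hoxc12 and Hoxc13 had no peak in any list. A further B6 male peak lay outside all windows at chr15:102818105-102818397, with a fold enrichment of 2.74.

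Hoxd had no peak. Hoxd1, Hoxd3, Hoxd4, Hoxd8, Hoxd9, Hoxd10, Hoxd11, Hoxd12 and Hoxd13 had 0 of 9 windows called in each list. The nearest peaks outside the span were 86.2 kb away on the Hoxd13 side in each list and 57.7 kb, 57.8 kb, 57.7 kb and 57.7 kb away on the Hoxd1 side. On that side Mtx2, a mitochondrial import gene, had a start peak at percentiles 99.9, 99.8, 99.8 and 99.7. The next gene on the Hoxd13 side but for Evx2, Lnp, had 96.0, 94.5, 92.8 and 93.9. The uncalled Hoxd span thus lay between called genes. Peak names carry running numbers, and 0 numbers were missing inside any Hox span in any list.

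**Figure D3:**
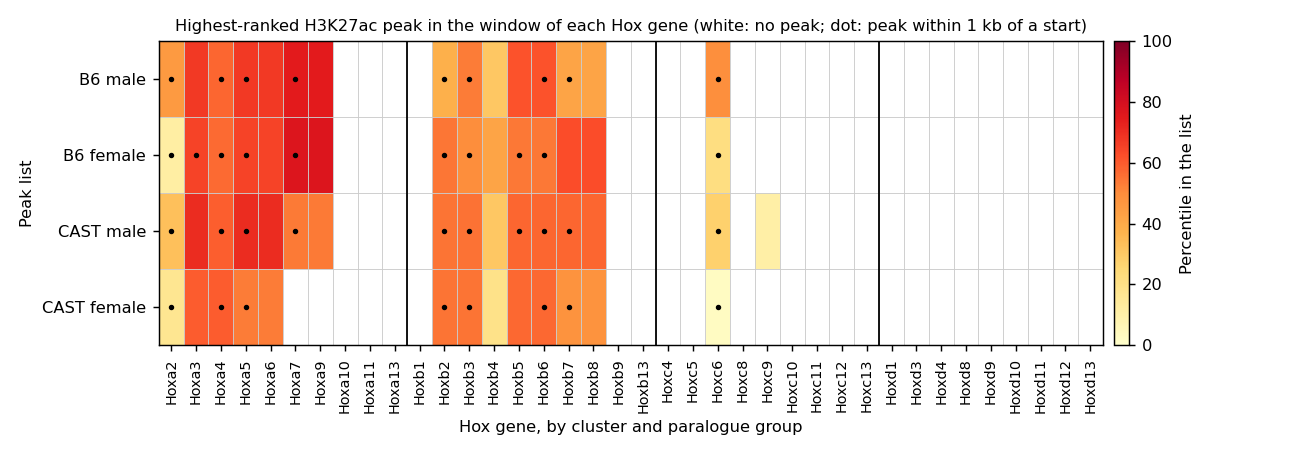
Percentile (color) of the highest-ranked peak in the window of each Hox gene (horizontal axis) in each merged list (vertical axis), where white is no peak and a dot is a peak within 1 kb of a start. Calls form a block from Hoxa2 to Hoxa9 and another from Hoxb2 to Hoxb8, and Hoxa7 and Hoxa9 are white in CAST female.

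By paralog group, 16, 16, 17 and 14 of the 27 genes of groups 1 to 9 had a window peak, against 66.9% to 68.7% of all genes. The 12 genes of groups 10 to 13 had 0 in every list. Of these, 8 lie in Hoxc and Hoxd, where most or all low-numbered genes had no peak either, and the other 4 are Hoxa10, Hoxa11, Hoxa13 and Hoxb13. Start peaks were found in groups 1 to 7, and groups 8 and 9 had 0. Both group 2 genes, Hoxa2 and Hoxb2, had a start peak in each list.

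The peaks of the 4 lists were merged where they overlapped, which gave 34 regions in Hox windows, 18 in Hoxa, 14 in Hoxb, 2 in Hoxc and 0 in Hoxd. All 4 lists called 14 regions (41.2%), against 40.4% of the 119348 merged regions of the whole genome. A single list called 10 (29.4%), against 32.4%. The shares moved with the processing, to 56.5% and 21.7% when gaps of up to 500 bp were closed (45.5% and 27.4% over the genome), and to 43.3% and 6 of 30 regions with equal list lengths (42.3% and 30.6% over the genome). The single-list regions were 0 in B6 male, 3 in B6 female, 5 in CAST male and 2 in CAST female, and over the whole genome the split was 19.9%, 25.7%, 29.5% and 24.9%. CAST female was the list missing from 3 of the 5 regions that 3 lists called, and from 35.9% of such regions of the genome. Both females and neither male shared 1 region, near Hoxb4, and both B6 lists and neither CAST list shared 1, near Hoxa3, while no region was called in both male lists or both CAST lists alone. Of the genome's regions in 2 lists, 7.48% were in both female lists, 25.3% in both B6 lists, 14.3% in both male lists and 37.3% in both CAST lists. The Hox counts are too few to set apart from these shares.

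CAST female had the fewest called Hox genes, and its peaks also covered the least sequence. By number of peaks in Hox windows it was level with B6 male, at 21. Peaks covered 3.35%, 3.22%, 3.30% and 2.35% of the 512 kb of cluster spans, and 2.67%, 2.54%, 2.76% and 2.47% of the autosomes and X. The spans were thus covered more than the genome in 3 lists and less than it in CAST female. Cell type markers were counted by a peak within 1 kb of a start, beside 58.2% to 60.2% of all genes, and hepatocyte markers serve to check the liver label. Hepatocyte markers had 7 of 8 (87.5%) in every list, with Serpina1c at 0, and sinusoidal endothelium markers 5 of 6, with Lyve1 at 0. The median start percentile of the hepatocyte markers, an uncalled start counted as 0, was 60.6, 63.7, 67.5 and 68.6. Among all genes with a start peak it was 92.1, 92.3, 92.6 and 92.0, so lower rank was not particular to Hox genes. Stellate cell markers had 3, 3, 4 and 2 of 7, with Des and Pdgfrb at 0 in all lists. Kupffer cell and other leukocyte markers had 1, 2, 1 and 0 of 7, with Csf1r, Cd68, Cd3e and Cd79a among those at 0 in all lists. Cholangiocyte markers had 3 of 5 in every list, a share at the background, with Krt19 and Krt7 at 0. Stellate and leukocyte counts were lowest in CAST female, and their part in the Hox calls was not tested.

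Genes that work with Hox proteins or act on the clusters were also counted by a peak within 1 kb of a start, beside the 58.2% to 60.2% of all genes. Cofactors of the TALE class, which bind DNA together with Hox proteins, had a start peak for 9 of 9 genes in every list, at median percentiles of 87.1, 78.5, 91.7 and 88.4. Pbx3 was among the higher, at 93.2, 94.0, 93.1 and 90.3, and Pbx4 among the lower, at 51.3, 46.5, 63.0 and 31.5. Meis2 had 77.5 and 78.5 in the B6 lists and 56.8 and 50.3 in the CAST lists. Polycomb and Trithorax genes had 21 of 22 in every list, at median percentiles of 94.9, 95.4, 93.6 and 93.2, and Kdm6b was the exception. Away from its start, Kdm6b had a window peak in every list, with highest fold enrichments of 8.74, 9.84, 9.22 and 9.72. Ezh2, which methylates the lysine, had percentiles of 96.0, 97.4, 93.4 and 95.4. The retinoid, FGF and Wnt inputs of Hox genes had 12, 12, 10 and 12 of 18 (66.7%, 66.7%, 55.6% and 66.7%), near that background and below it in CAST male.

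Other homeobox genes were counted in a pair of lists, which were drawn up with earlier results of these data known and so give no independent contrast. Homeobox genes of adult liver cells had a start peak for 17 of 17 genes in every list, at median percentiles of 91.0, 88.9, 91.1 and 91.4, with Hhex, a regulator of liver formation, at 91.4, 90.6, 93.7 and 95.6. Developmental homeobox genes outside the clusters had 9, 7, 7 and 6 of 50, and 41 had none in any list. Lhx1, Dlx4, Lhx2, Irx3 and Cdx4 were called in all 4 lists, with Lhx1 at percentiles 90.3, 91.2, 83.8 and 79.7. Evx1 and Evx2, the homeobox genes next to Hoxa13 and Hoxd13, had none.

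**Figure D4:**
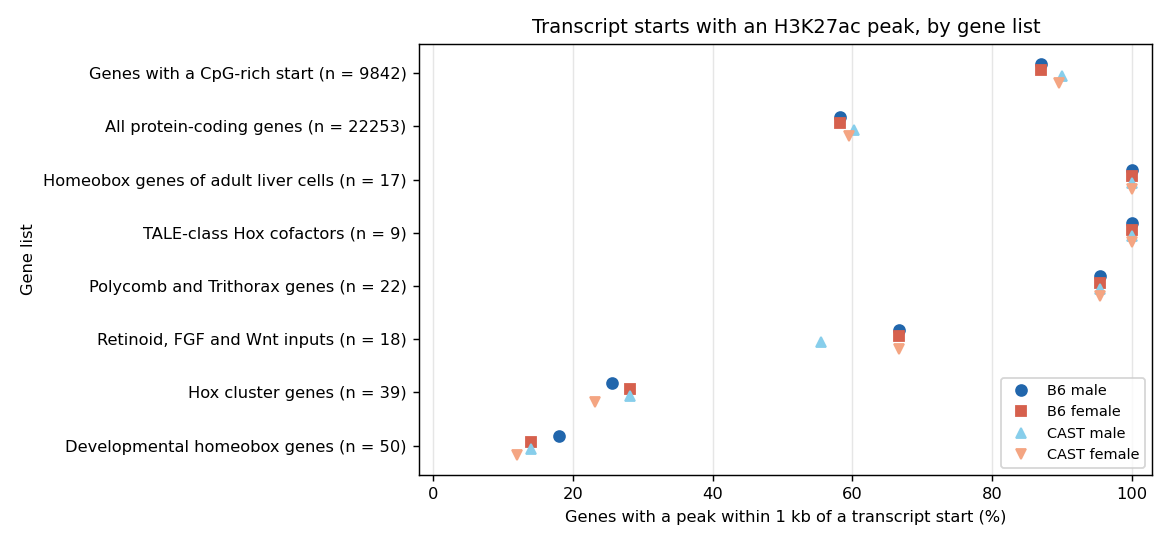
Percentage of genes with an H3K27ac peak within 1 kb of a start (horizontal axis) for each gene list (vertical axis, with the number of genes), with a symbol per merged list. Hox genes lie between 23.1% and 28.2%, developmental homeobox genes between 12% and 18%, and all protein-coding genes between 58.2% and 60.2%.

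The clusters also hold microRNA genes, which were located in mm9. Mature sequences are from RefSeq (GRCm38.p6), and 4 are shown because they form pairs that differ at a single base and lie in different clusters, with the seed (bases 2 to 8) in capitals.
miR-10a-5p: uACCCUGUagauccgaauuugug
miR-10b-5p: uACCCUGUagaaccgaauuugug
miR-196a-5p: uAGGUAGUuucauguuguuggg
miR-196b-5p: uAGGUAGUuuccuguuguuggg
Counted from 1 at the 5′ end, miR-10a-5p and miR-10b-5p differ by U12A, and miR-196a-5p and miR-196b-5p by A12C, so each pair has a shared seed. Mir10a, in Hoxb at chr11:96178479-96178588, lay 1.48, 0.946, 0.895 and 1.76 kb from the nearest peak in the 4 lists. Mir10b, in Hoxd at chr2:74564127-74564194, lay 99.2, 99.3, 99.2 and 99.2 kb away. Mir10a was thus within 2.5 kb of a peak in every list and Mir10b in none. Mir196a-1 in Hoxb lay 19 to 20.6 kb away, Mir196a-2 in Hoxc 8.49 to 25.9 kb, Mir196b in Hoxa 8.08 to 25.7 kb and Mir615 in Hoxc 14.6 to 15.4 kb.

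Base composition followed the calls in part. Hox regions had a median GC of 59.0% and a CpG observed-to-expected ratio of 0.641, against 47.1% and 0.206 for all merged regions. In 1-kb bins of the spans, the 22 bins called in all lists had a median ratio of 0.649, the 29 called in 1 to 3 lists 0.459 and the 458 called in none 0.283. Of 66 CpG-rich bins, 18 were called, 8 of 24 in Hoxa, 9 of 15 in Hoxb, 1 of 13 in Hoxc and 0 of 14 in Hoxd. CpG-rich sequence was therefore present in all 4 clusters, and the share of it that was called differed between them. These bins lie side by side and are not replicates. Bins were scored inside the spans only, so no share over the genome stands beside these counts.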

How the data were processed

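H3K27ac ChIP-seq of 20 livers and 4 inputs was used as 4 merged peak lists. The authors merged the reads of a group, aligned uniquely mapped reads with Bowtie2 (B6 to mm9, CAST to a custom CAST genome with positions converted to mm9), called peaks with MACS2 against input, and removed blacklisted regions. The authors deposited for each peak a score (10 times the −log10 q-value, rounded down), a fold enrichment over background (a ratio), and the −log10 of the p-value. Depth per liver was not used here, so intervals between livers cannot be given. Positions are 1-based on NCBIM37 (mm9) with GENCODE vM1.

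From these, peaks were ranked within their whole list by score, with ties by p-value. Those on the 19 autosomes and X (79818, 82176, 90228 and 84645, in the order B6 male, B6 female, CAST male, CAST female) were then used. Peaks on Y and M were left out after the ranking. Some items, a Hox gene among them, are counted but not reported here, and the figures leave that gene and the peaks nearest to it out. Python 3.11.15, numpy 2.4.6 and pandas 2.3.3 were used, and the overlap code was tested on simulated data. Windows of neighboring genes overlap, so 1 peak can count for several genes. Named with values in each list are the 3 genes per cluster with the highest mean percentile, genes called in 1 to 3 lists, and the region of highest mean percentile per cluster. Alternatives were the flank, the overlap, a stricter q-value, equal list lengths, the start window and the merging of peaks. The members and gene lists were chosen with earlier results of these data known.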

Additional observations from a re-analysis of the deposited data

Results flagged for a closer look

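At 3 Hox regions, 2 of which are reported here, the sex that carried the call was reversed between the strains. These differences rest on whether a peak passed the limit of its list, and they were not tested. A region near Hoxb4 was called in B6 female (fold enrichment 2.14) and CAST male (1.84). A region near Hoxb2 was called in B6 male (2.09) and CAST female (2.25). Over the 19676 merged regions of the genome that 2 lists called, these were B6 female and CAST male in 10.0% and B6 male and CAST female in 5.61%.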

How the results depend on the processing

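No paired analysis was possible because each list pools the 5 livers of its group, and for the same reason no liver could be left out in turn. Counts of called Hox genes stayed within 1.5 times their values under every alternative, and no Hoxd gene and no gene of groups 10 to 13 was called under any. Coverage of the spans (3.35%, 3.22%, 3.30% and 2.35% in the order B6 male, B6 female, CAST male, CAST female) was 3.49%, 3.35%, 3.43% and 2.45% without flanks and 2.71%, 2.46%, 2.85% and 1.76% with −log10 q of at least 5, read from the score. With equal list lengths it was 3.0% in CAST male and 2.23% in CAST female. Regions called in all lists numbered 22 as 1-kb bins, against 14. Regions called in 1 list numbered 5 when gaps of up to 500 bp were closed and 6 with equal list lengths, against 10. Without flanks, Hoxa6 and Hoxa9 had 0 lists. With the stricter q, Hoxa2 and Hoxc6 had 2 lists and Hoxc9 had 0. With equal list lengths, Hoxc6 had 3 lists and Hoxc9 had 0. With 5 kb flanks, Hoxc8 and Hoxc9 had 2. When each peak counted only for the gene with the nearest start, a choice made after seeing the data, Hoxa6, Hoxa9 and Hoxb8 had 0. A missing peak is not a measured absence of the mark, since it either did not pass the limit of the list or was removed by the authors. Gaps in the peak numbers, a trace of removal, were found at 0 uncalled starts of the marker, homeobox, Polycomb and retinoid lists, and at 3 neighbors of the clusters in each B6 list.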

Other observations

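The next protein-coding genes outside the clusters gave a few values not described above. Skap2, on the low-numbered side of Hoxa, had a start peak at percentiles 94.5, 96.0, 96.0 and 92.8 in the order B6 male, B6 female, CAST male, CAST female. Skap1 on the Hoxb1 side and Ttll6 on the Hoxb13 side had none in any list. Cbx3, beyond Skap2, had 2 start peaks in each CAST list at percentiles 99.3 and 98.8 and 0 in each B6 list. Atp5g2 and Hnrnpa1, near Hoxc, were likewise called in both CAST lists and neither B6 list. In each B6 list 2 peak numbers were missing at Cbx3, 2 at Atp5g2 and 1 at Hnrnpa1, so an uncalled start there is not a measured strain difference. A B6 male peak at chr6:52220754-52221167 lay 7.38 kb beyond the Hoxa13 side of Hoxa, at a fold enrichment of 2.07, where the nearest peaks of the other lists were 214 kb, 214 kb and 215 kb away.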
